A study of Sus scrofa with 4 samples.

Results

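The genes described here are 5 precursors or secreted factors and 1 receptor of the pig endometrium, the lining of the uterus: NMB (neuromedin B), NMU (neuromedin U), PENK (proenkephalin), SST (somatostatin), GHSR (the ghrelin receptor) and STC1 (stanniocalcin 1). They were selected on the ratio of their levels between days in epithelium or stroma, with no stated threshold, so those day ratios are given below as a description and support nothing. They are 6 of the 21280 genes counted. The symbols of 5 stand in the deposited gene lists, and NMB was found through its gene identifier in a reference table.

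Single cells of Sus scrofa were profiled in 4 libraries, 1 per group: endometrium at day 12 of pregnancy, endometrium at day 9, embryos at day 12 and embryos at day 9. Endometrium was digested with collagenases and dispase, and embryos with papain and dispase, before a droplet library that reads the 3' end of each transcript. The labels name no breed and no treatment, and the sources used here do not give how many animals or embryos each library pools. With 1 library per group no difference between days has a replicate check, none was tested, and the intervals below (95%, exact) cover counting error only.

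Neuropeptides are cut from larger precursors in the secretory pathway, stored in dense core vesicles and read by G protein-coupled receptors on nearby cells. Neuromedin B belongs to the bombesin-like peptides, neuromedin U was first described as a peptide that contracts the uterus, enkephalins act on opioid receptors, and somatostatin restrains secretion. Stanniocalcin 1 is a secreted glycoprotein linked to calcium and phosphate balance and to the inhibition of the protease PAPPA, and in the pig uterus it is known as a product of the luminal epithelium.

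In RefSeq for Sscrofa11.1, the build named in the submitters' processing notes, NMB lies at chr7:52880817-52886651, NMU at chr8:54952333-54978577, PENK at chr4:75525497-75530403, GHSR at chr13:110981465-111006149, SST at chr13:125337560-125338742 and STC1 at chr14:7952175-7961365. Of these 6 gene spans, 5 overlap no other annotated gene. NMU overlaps the long noncoding RNA LOC102166140 in position. The strands of the pair were not compared, and whether they share reads was not tested.

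The kept endometrial cells numbered 8962 with 25457541 UMIs (molecules counted once by their tag) on day 12 and 7984 with 26070993 UMIs on day 9, with medians of 2233 and 2639 UMIs per cell. Cells were clustered within each library and clusters were named from marker genes. Epithelial-like cells were 353 on day 12 (clusters 11 and 12) and 670 on day 9 (clusters 8 and 12). Stromal-like cells were 5616 on day 12 (clusters 1 to 5) and 5063 on day 9 (clusters 1, 2 and 6). The clusters behind a class therefore differ between days and were numbered separately in each library. All 12 epithelial markers in the files were higher in the epithelial-like cells than in the rest of their library on both days, and all 14 stromal markers were higher in the stromal-like cells. Of the kept barcodes, 270 on day 12 and 232 on day 9 also stood among the kept cells of another library, and 105 were common to both endometrial libraries. Without the cells whose barcodes were shared, the log2 ratios of day 12 over day 9 (1 CPM added) in the class where each gene is described were 5.80 for NMB, 8.52 for NMU, -6.04 for PENK, -1.78 for SST, 3.89 for GHSR and 5.02 for STC1. With all cells they were 5.84, 8.52, -6.05, -1.77, 3.88 and 5.03 in the same order.

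On the scale of log2(CPM + 1), where CPM is the usual counts-per-million scale applied to the summed UMIs of the class, 3 of the 6 genes were 4-fold or more higher in epithelial-like cells of day 12 (NMB, NMU and STC1) and 1 was 4-fold or more lower (PENK). Of all 10476 genes at 5 CPM or more in that class, 3.62% were as much higher and 4.83% as much lower. In stromal-like cells 5 of the 6 genes reached 5 CPM, of which NMB and GHSR were 4-fold or more higher on day 12 and PENK was 4-fold or more lower, where 1.28% of 10125 genes were as much higher and 1.74% as much lower. NMU stayed under that level in stroma. In the other classes PENK was 4-fold or more lower on day 12 in each, and SST in each but smooth muscle or pericyte-like cells. Of all genes measured in them, 6.98% were as much lower in T or NK cell-like cells, 4.09% in B or plasma cell-like cells, 2.09% in macrophage or monocyte-like cells, 1.92% in smooth muscle or pericyte-like cells and 1.52% in blood endothelial-like cells. NMB was 4-fold or more higher in T or NK, B or plasma, and smooth muscle or pericyte-like cells, where 1.21%, 2.53% and 1.85% of the genes were. In the smooth muscle or pericyte-like cells NMU and GHSR were as well, and in blood endothelial-like and macrophage or monocyte-like cells none of the 6 was, against 0.947% and 1.43% of genes. Because the genes were chosen for these ratios, nothing is read from these shares.

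**Figure D1:**
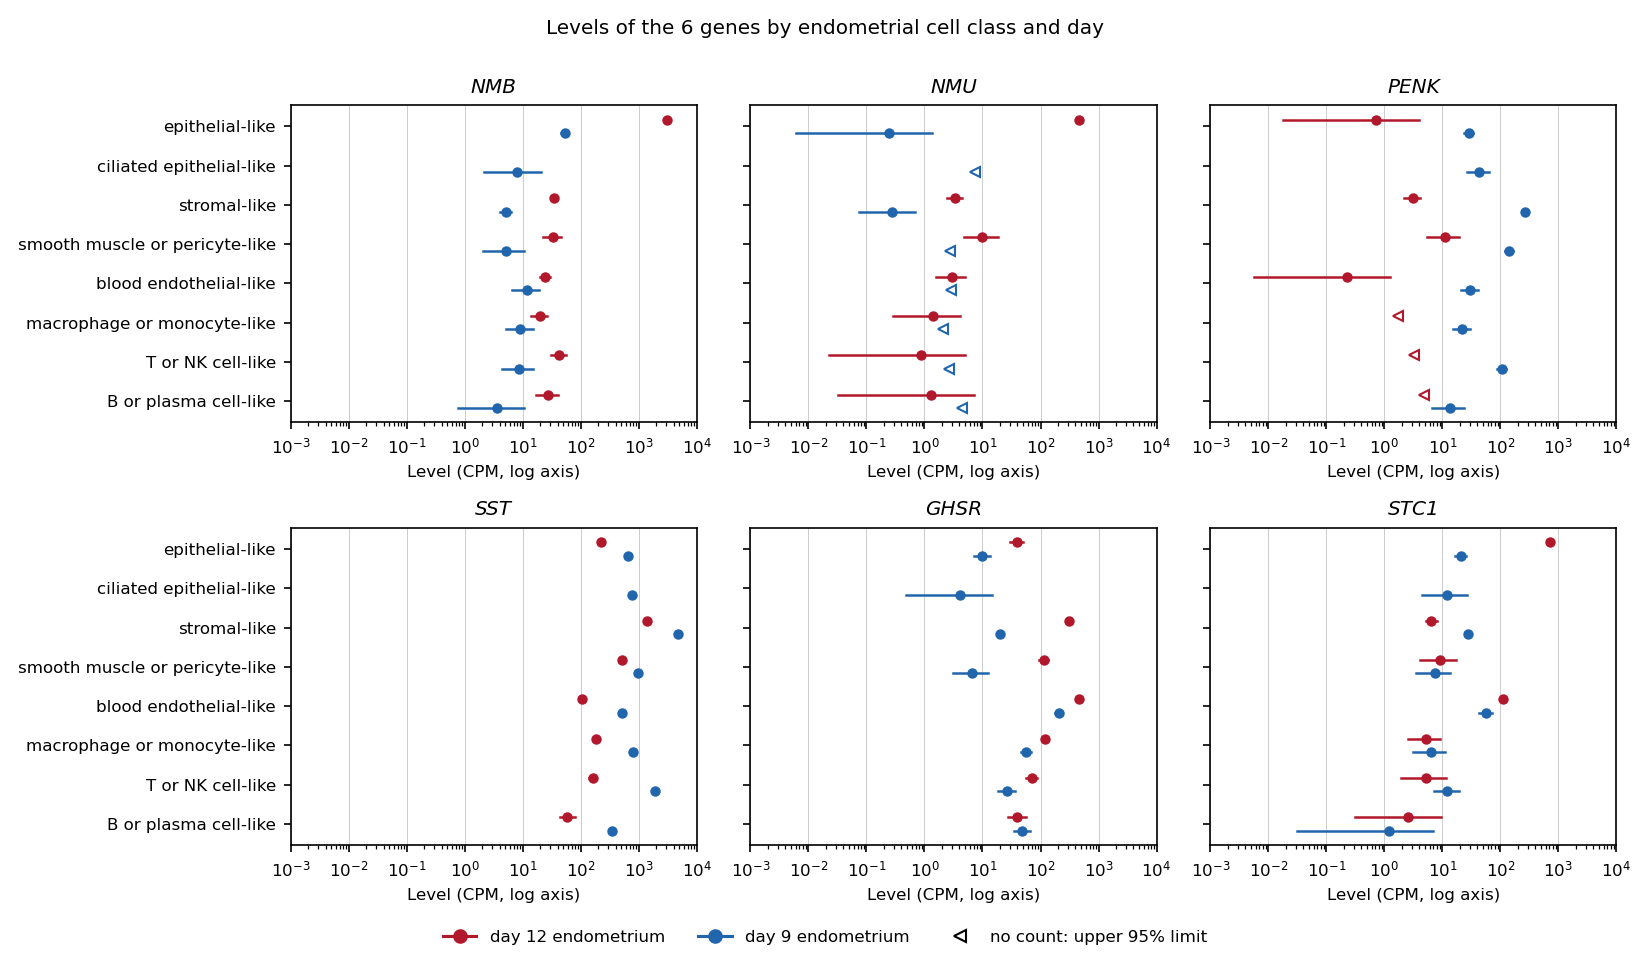
Level of each gene (CPM, log axis) in each named endometrial class of 50 cells or more, day 12 in red above day 9 in blue, with exact 95% Poisson intervals as bars and open triangles at the upper limit where no UMI was counted; ciliated epithelial-like cells have a day 9 point only. NMB, NMU and STC1 stand apart in epithelial-like cells of day 12, PENK and SST are lower on day 12 in the classes drawn for both days, and GHSR is highest in blood endothelial-like cells on both days.

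NMB, the precursor of neuromedin B, reached 3103 CPM in epithelial-like cells of day 12 (4389 UMIs, interval 3012 to 3196), against 53.3 CPM on day 9 (221 UMIs, 46.5 to 60.9). The level on day 12 was 58.2-fold higher (50.8 to 66.9), a log2 ratio of 5.84. It was 4.85 with at most 10% mitochondrial UMIs per cell and 4.86 with both libraries clustered together. In those settings the larger epithelial cluster of day 12 lost its name, which left 57 cells with 290 NMB UMIs. With unnamed clusters included in their nearest class, an alternative chosen after seeing the data, the ratio was 5.73 and 5.72. Both epithelial clusters of day 12 were high, with 3293 CPM in the large cluster 12 (296 cells) and 1708 CPM in the small cluster 11 (57 cells). On day 9 cluster 12 had 101 CPM and cluster 8 had 16.7 CPM. NMB is itself among the 10 leading genes of cluster 12 of day 12.

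NMB was also spread over the epithelial cells of day 12. Of those cells, 87.5% (83.6 to 90.8) held at least 1 UMI, against 22.5% (19.4 to 25.9) on day 9. Thinned to 1000 UMIs per cell the shares were 77.3% and 5.07%. In T or NK cell-like cells, taken as a background class outside the epithelium, 6.24% held a UMI on day 12 and 1.75% on day 9. The median depth was 3495 UMIs in epithelial-like cells of day 12 and 4274 on day 9, and 1248 and 1326 UMIs in T or NK cell-like cells. On day 12 the median epithelial cell held 9 NMB UMIs and the highest cell 95, and the top 10% of cells (35 cells) held 35.2% of the counts. On day 9 the median was 0 and the highest cell held 4.

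Outside the epithelium, NMB on day 12 lay between 19.7 CPM in macrophage or monocyte-like cells and 41.6 CPM in T or NK cell-like cells, and neighbouring levels in that order had overlapping intervals. As a share of the epithelial level, those 6 classes held 0.635% to 1.34% of NMB. The summed epithelial markers stood at 1.07% to 1.34% of their epithelial level in the same classes. On day 9 the other classes without the ciliated cells held 6.86% to 22.1% of the epithelial NMB, from 3 to 76 UMIs, beside 3.87% to 7.20% of the markers. Stromal-like cells, with 34.5 CPM on day 12 against 5.14 CPM on day 9, held 1.11% of the epithelial NMB and 1.21% of the epithelial marker level on day 12. The 6.71-fold difference between days in stroma therefore goes with a low level close to what the epithelial markers show there, and the part of RNA from epithelial cells in it was not tested.

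NMU, the precursor of neuromedin U, was counted 645 times in epithelial-like cells of day 12 (456 CPM, 421 to 493) and 1 time on day 9 (0.241 CPM, up to 1.34). The ratio was 1889 (338 to 74728) and rests on that single UMI. It also depends on the large day 12 cluster carrying the epithelial name: where that cluster lost it, the log2 ratio of 8.52 was 3.68 (at most 10% mitochondrial UMIs per cell) and 3.33 (both libraries clustered together). Unlike NMB, NMU came almost wholly from one of the epithelial clusters: cluster 12 held 643 UMIs (517 CPM) and cluster 11 held 2 UMIs (11.8 CPM, 1.43 to 42.5). Of the 721 NMU UMIs in the day 12 library, 89.2% lay in cluster 12. The share of epithelial-like cells with a UMI was 48.2% on day 12 and 0.149% on day 9, and after thinning 25.2% and 0%. In T or NK cell-like cells it was 0.142% on day 12, and 0 of 686 cells on day 9, which allows a share of up to 0.437%.

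NMU elsewhere was scarce. Smooth muscle or pericyte-like cells had 10 UMIs on day 12 (9.97 CPM, 4.78 to 18.3) and none on day 9, which makes the level at least 4.49-fold higher with 3 counts in place of 0. Their day 12 level was 2.19% of the epithelial one, where the summed epithelial markers stood at 1.07%. Stromal-like cells had 3.30 CPM (44 UMIs) on day 12 and 0.270 CPM (4 UMIs) on day 9.

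The 2 day 12 epithelial clusters differed in their leading genes. Cluster 11 was led by ENSSSCG00000032503, ACP5 (uteroferrin, an iron-binding secretion of the pig uterine glands) and MEP1B, and ACP5 stood at 8821 CPM there against 490.1 CPM in cluster 12. Cluster 12 was led by ENSSSCG00000035724, FXYD3 (a regulator of the sodium pump) and TRPV5 (an epithelial calcium channel), with TRPV5 at 2568 CPM against 29.4 CPM in cluster 11. RBP4, the retinol carrier, was high in both, with 10864 CPM in cluster 11 and 10236 CPM in cluster 12. The level of NMU was thus high beside TRPV5 and low beside ACP5, and NMB was high in both clusters.

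Markers of neutrophils moved with these cells. Of 7 neutrophil markers 4 are in the files, and their summed level in epithelial-like cells was 1818 CPM on day 12 and 2.66 CPM on day 9. S100A12 made up most of it, with 1669 CPM on day 12 against 0.483 CPM on day 9, with S100A8 at 144 and 0.241 CPM and the receptor CSF3R at 4.95 and 1.93 CPM. MPO, a granule enzyme of neutrophils, was at 0 in epithelial-like cells on both days. In stromal-like cells it had 0 UMIs on day 12 and 1 on day 9, so nothing is read from its absence. Dissociation-induced genes were also higher on day 12: all 9 of the list in the files were above a log2 ratio of 0 in epithelial-like cells (median 0.52), where 41.9% of all measured genes were (median -0.16), and 8 of 9 in stromal-like cells (median 0.39), where 42.5% were (median -0.10). The part of either group in the values of the 6 genes was not tested.

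STC1 was the third gene with a high epithelial level on day 12, at 709.8 CPM (1004 UMIs, 667 to 755), against 20.8 CPM on day 9 (86 UMIs, 16.6 to 25.6). Its level was 34.2-fold higher (27.4 to 43.1). Like NMU it lay in cluster 12 of day 12, with 1003 UMIs (806 CPM) there and 1 UMI in cluster 11. On day 9 it also differed between epithelial clusters, with 43.8 CPM in cluster 12 (led by DEFB1, ENSSSCG00000035724 and ENSSSCG00000034740) and 2.99 CPM in cluster 8 (led by CCL28, SORL1 and LRATD1).

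The call of a higher epithelial STC1 on day 12 depends on cluster 12 carrying the epithelial name. With at most 10% mitochondrial UMIs per cell, or with both libraries clustered together, the cells of cluster 12 no longer met the rule for the epithelial name. The cells left in the class on day 12 were then those of the small cluster, and the log2 ratio was -1.83 and -1.80. With unnamed clusters included in their nearest class, an alternative chosen after seeing the data, it was 4.87 and 4.89.

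In stroma STC1 ran the other way: stromal-like cells had 6.44 CPM on day 12 (86 UMIs, 5.15 to 7.96) and 27.4 CPM on day 9 (406 UMIs, 24.8 to 30.2), a level 4.26-fold lower on day 12. The 5 stromal clusters of day 12 had between 4.03 and 9.57 CPM. On day 9 clusters 1 and 6 had 41.4 and 44.7 CPM, and cluster 2 had 4.26 CPM, within the day 12 range. Blood endothelial-like cells were the third site, with 112 CPM on day 12 (102 to 122) and 55.8 CPM on day 9 (43.6 to 70.4), 2.0-fold higher on day 12. They ranked second to epithelium on day 12 and first on day 9. In the remaining classes STC1 was between 1.22 and 12.2 CPM, with overlapping intervals for each pair of neighbours in the order.

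The share of cells with an STC1 UMI followed the levels. It was 66.9% (61.7 to 71.7) of epithelial-like cells on day 12 and 9.85% (7.70 to 12.4) on day 9, and 39.1% and 2.54% after thinning. In stromal-like cells it was 1.44% on day 12 and 6.74% on day 9, and 0.766% and 2.78% after thinning. T or NK cell-like cells held a UMI in 0.851% on day 12 and 2.33% on day 9, and in 0.284% and 0.729% after thinning.

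**Figure D2:**
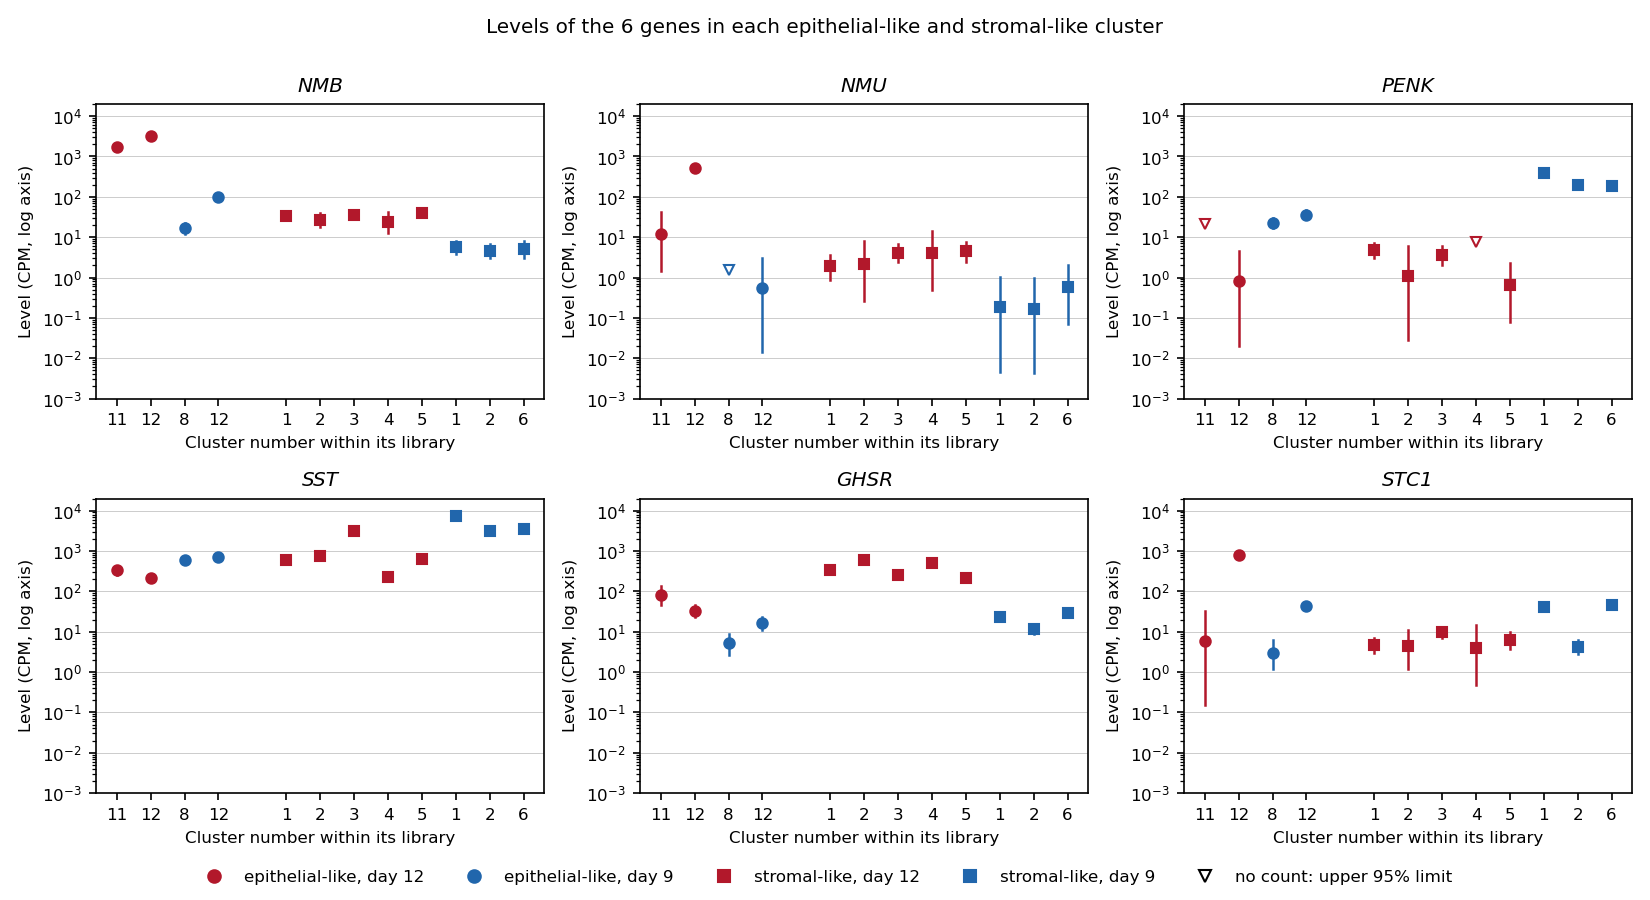
Level of each gene (CPM, log axis) in each epithelial-like (circles) and stromal-like (squares) cluster, day 12 in red left of day 9 in blue within each class, with exact 95% Poisson intervals and open triangles at the upper limit where no UMI was counted; the axis gives the cluster number within its library. NMU and STC1 are high in cluster 12 of day 12 and not in cluster 11, NMB is high in both, and PENK is at most 4.83 CPM in the stromal clusters of day 12 and 191 CPM or more in those of day 9.

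NMB, NMU and STC1 were also counted in single cells of cluster 12 of day 12. Of the 284 cells with an NMB UMI, 57.4% (51.4 to 63.2) also had one of NMU, against 41.7% (15.2 to 72.3) of the 12 cells without NMB. Cells with NMB were deeper, with a median of 3930.5 UMIs against 2205 UMIs, and after thinning to 1000 UMIs the order turned, with NMU in 29.0% of the cells with NMB and in 34.1% of those without. STC1 was counted in 85.1% (78.8 to 90.1) of the cells with NMU and in 71.9% (63.2 to 79.5) of those without. Cells with NMU were deeper, with a median of 4436 UMIs against 2793 UMIs. After thinning to 1000 UMIs the STC1 shares were 51.1% with NMU and 44.2% without.

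PENK, the precursor of the enkephalins, was a stromal transcript of day 9. Stromal-like cells had 3.07 CPM on day 12 (41 UMIs, 2.20 to 4.17), against 268 CPM on day 9 (3967 UMIs, 260 to 277). In the 5 stromal clusters of day 12 PENK had 23, 1, 15, 0 and 2 UMIs in clusters 1 to 5, at most 4.83 CPM. The 3 clusters of day 9 had 390.4, 201 and 191 CPM in clusters 1, 2 and 6. PENK was chosen for its day ratio and clusters of a library are not replicates, so nothing is read from this difference. PENK is itself a leading gene of cluster 1 of day 9, beside SST and SPOCK3.

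The share of stromal-like cells with a PENK UMI was 0.516% (0.346 to 0.741) on day 12 and 31.9% (30.7 to 33.2) on day 9. Thinned, the shares were 0.178% and 17.3%. The top 10% of stromal cells of day 9 (506 cells) held 64.8% of the PENK counts, the highest cell held 31 UMIs and the median cell none. On day 12 the highest cell held 9.

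PENK counts in most other classes of day 9 went with stromal markers. The furthest from them were macrophage or monocyte-like cells, with PENK at 21.8 CPM or 8.12% of the stromal level and markers at 16.7%. T or NK cell-like cells of day 9 had 105 CPM of PENK, 39.2% of the stromal level, and their summed stromal markers stood at 38.8% of the stromal level. Epithelial-like cells had 28.5 CPM or 10.6%, with stromal markers at 11.8%. B or plasma cell-like cells had 13.4 CPM or 5.01%, with markers at 7.31%, and smooth muscle or pericyte-like cells 141 CPM or 52.7%, with markers at 43.5%. On day 12 PENK had no UMI in T or NK cell-like cells (146 UMIs on day 9), at least 39.6-fold lower with 3 counts in place of 0. Their summed stromal markers stood at 10.2% of the stromal level on day 12, below the 38.8% of day 9. The part of this in the ratio was not tested. On day 12 smooth muscle or pericyte-like cells had the highest level, 10.97 CPM from 11 UMIs in 7 cells (5.47 to 19.6), above the stromal 3.07 CPM.

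SST, the precursor of somatostatin, was present in stroma on both days. Stromal-like cells had 1374 CPM on day 12 (18333 UMIs, 1354 to 1394) and 4682 CPM on day 9 (69267 UMIs, 4647 to 4717). The level was 3.41-fold lower on day 12 and, like PENK, lower in each of the 7 classes measured on both days. Among those classes the ratio was smallest in smooth muscle or pericyte-like cells (1.88-fold lower, with 510.4 CPM on day 12 and 958 CPM on day 9). It was largest in T or NK cell-like cells (11.9-fold lower, with 162 CPM on day 12 and 1919 CPM on day 9). That class also differed in summed stromal markers, at 10.2% of the stromal level on day 12 and 38.8% on day 9. With finer clustering (Leiden resolution 1.0) it held 651 cells on day 12 (705 here) and 519 on day 9 (686 here). The part of these differences in the ratio was not tested.

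SST was spread more unevenly among stromal cells on day 12. The top 10% of stromal-like cells held 87.0% of its counts on day 12 (562 cells) and 44.8% on day 9 (506 cells). The median stromal cell held 0 UMIs on day 12 and 3 on day 9, while the highest held 152 and 185. Cluster 3 of day 12, led by SST, CRABP1 and FNDC1, had 3144 CPM and held 59.5% of all SST UMIs of its library in 2028 cells. The other 4 stromal clusters of day 12 had between 232 and 763.5 CPM, the lowest of them cluster 4 (led by DKK2, ENSSSCG00000032946 and C7). On day 9 cluster 1 had 7236 CPM, and clusters 2 and 6 had 3053 and 3463 CPM. The highest day 12 cluster thus lay within the range of day 9, and the others lay below it.

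In stromal-like cells 33.4% (32.2 to 34.7) held an SST UMI on day 12 and 82.9% (81.9 to 83.9) on day 9. After thinning the shares were 23.2% and 64.2%. In T or NK cell-like cells the shares were 15.04% on day 12 and 52.5% on day 9, or 9.22% and 39.9% thinned, and the stromal shares are read against these. On day 9 this class is not a background free of stromal transcripts, since its summed stromal markers stood at 38.8% of the stromal level. The SST level in the other classes followed the summed stromal markers. On day 12 B or plasma cell-like cells had 4.33% of the stromal SST level and 5.45% of the markers, T or NK cell-like cells 11.8% of the level beside 10.2% of the markers, and smooth muscle or pericyte-like cells 37.2% and 33.2%. On day 9 B or plasma cell-like cells had 7.38% of the SST level and 7.31% of the markers, and in T or NK cell-like cells these were 41.0% and 38.8%. The furthest from it were smooth muscle or pericyte-like cells of day 9, with 20.5% of the SST level and 43.5% of the markers.

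**Figure D3:**
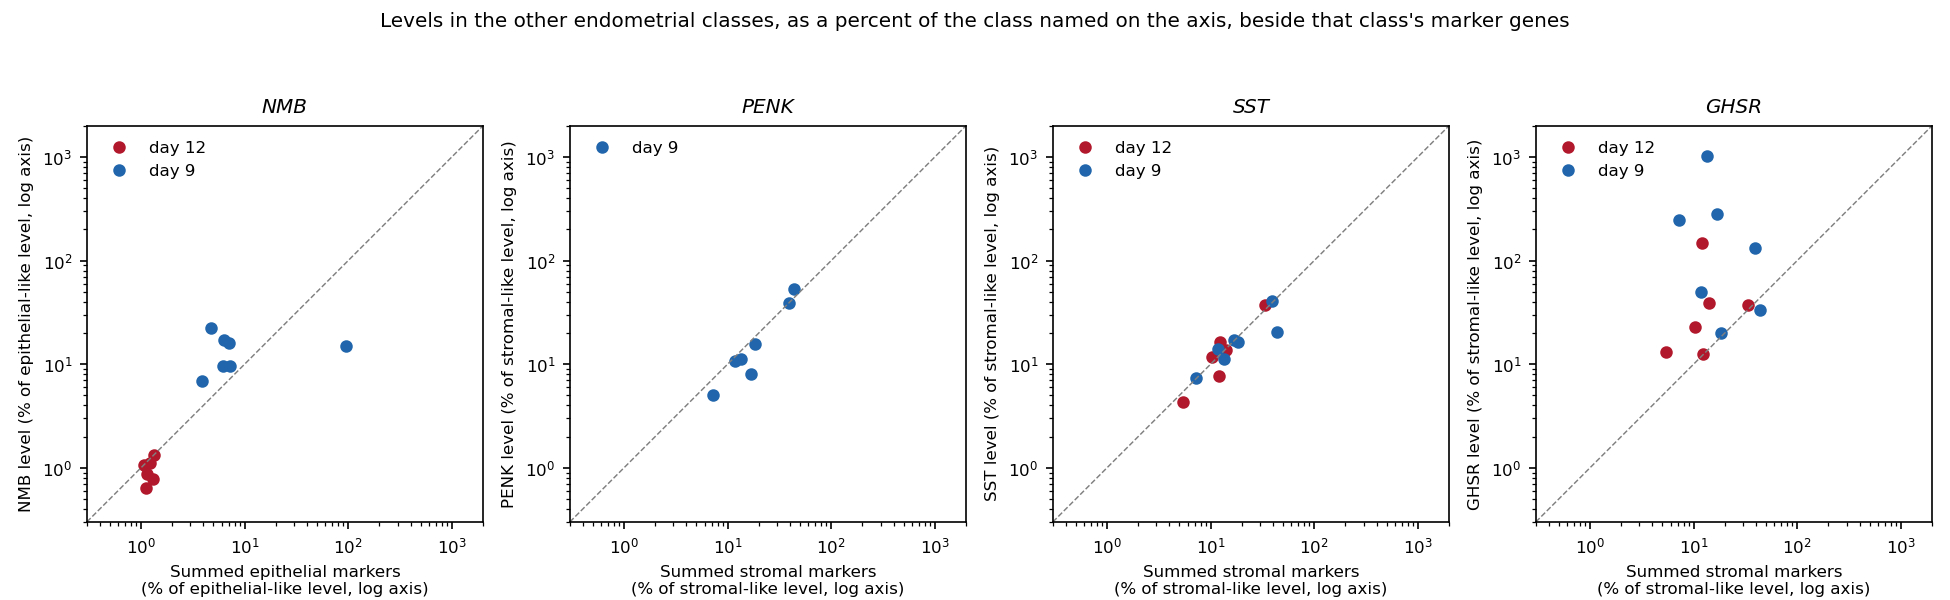
Level of NMB, PENK (day 9 only), SST and GHSR in the other named classes of 50 cells or more, as a percent of the level in epithelial-like (NMB) or stromal-like cells, against the summed markers of that class as a percent of their own level there (both log axes; day 12 red, day 9 blue; dashed line, equal percents). Most SST and PENK points lie close to the line, NMB lies close to it on day 12, and most GHSR points lie above it. Furthest from it are smooth muscle or pericyte-like cells for SST and macrophage or monocyte-like cells for PENK, both on day 9.

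In single stromal cells of day 9, PENK was counted in 33.2% (31.8 to 34.7) of the 4198 cells with an SST UMI and in 25.8% (22.9 to 28.8) of those without. Thinned, these shares were 18.6% and 14.9%. The cells with SST were slightly deeper, with a median of 2755.5 UMIs against 2399 UMIs.

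GHSR, the receptor through which acylated ghrelin releases growth hormone, was the one receptor among the 6 genes and had another pattern. Its highest level was in blood endothelial-like cells on both days, with 452 CPM on day 12 (1994 UMIs, 433 to 473) and 204.5 CPM on day 9 (260 UMIs, 180 to 231). The level there was 2.21-fold higher on day 12 (1.94 to 2.53). A UMI was found in 66.7% (63.4 to 69.9) of those cells on day 12 and in 62.5% (54.9 to 69.7) on day 9, at medians of 3111.5 and 5983.5 UMIs per cell.

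Stromal-like cells ranked second on day 12, with 308 CPM (4110 UMIs, 299 to 318), and in place 5 of 8 on day 9, with 20.01 CPM (296 UMIs, 17.8 to 22.4). All 5 stromal clusters of day 12 were high, between 219 CPM in cluster 5 and 593 CPM in cluster 2, which was led by IDO1, CCL26 and MAP1LC3C. The 3 of day 9 were low, between 11.4 and 29.3 CPM. Clusters of a library are not replicates, so nothing is read from this difference. Of stromal-like cells, 39.9% (38.6 to 41.2) had a UMI on day 12, against 9.93% of T or NK cell-like cells. On day 9 the stromal share of 5.43% (4.82 to 6.09) was close to the 5.25% (3.70 to 7.19) of T or NK cell-like cells, and the thinned stromal share of 2.15% was below their 3.06%. It was above the thinned 0.337% of smooth muscle or pericyte-like cells and 0.896% of epithelial-like cells, and the stromal level on day 9 was above the 9.90 CPM of epithelial-like cells with intervals that do not overlap. Thinned shares on day 12 were 22.8% in stroma and 6.52% in T or NK cell-like cells. The T or NK cell-like cells of day 9 held summed stromal markers at 38.8% of the stromal level, which limits them as a background.

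Next in order on day 12 came macrophage or monocyte-like cells with 121 CPM and smooth muscle or pericyte-like cells with 114 CPM, whose intervals overlapped. On day 9 these classes had 56.1 and 6.66 CPM. The 17.1-fold ratio of GHSR in smooth muscle or pericyte-like cells (8.68 to 38.3) rests on 114 UMIs on day 12 and 9 on day 9. Their summed stromal markers stood at 33.2% of the stromal level on day 12, beside 36.9% for GHSR. Blood endothelial-like cells differed from this pattern, with GHSR at 147% of the stromal level on day 12 and 1022% on day 9, and stromal markers at 12.1% and 13.5%. B or plasma cell-like cells had GHSR at similar levels on both days, 40.0 CPM on day 12 (27.2 to 56.8) and 48.8 CPM on day 9 (34.9 to 66.5). In single stromal cells of day 12 GHSR was found in 39.8% of the cells with SST and in 39.9% of those without.

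**Figure D4:**
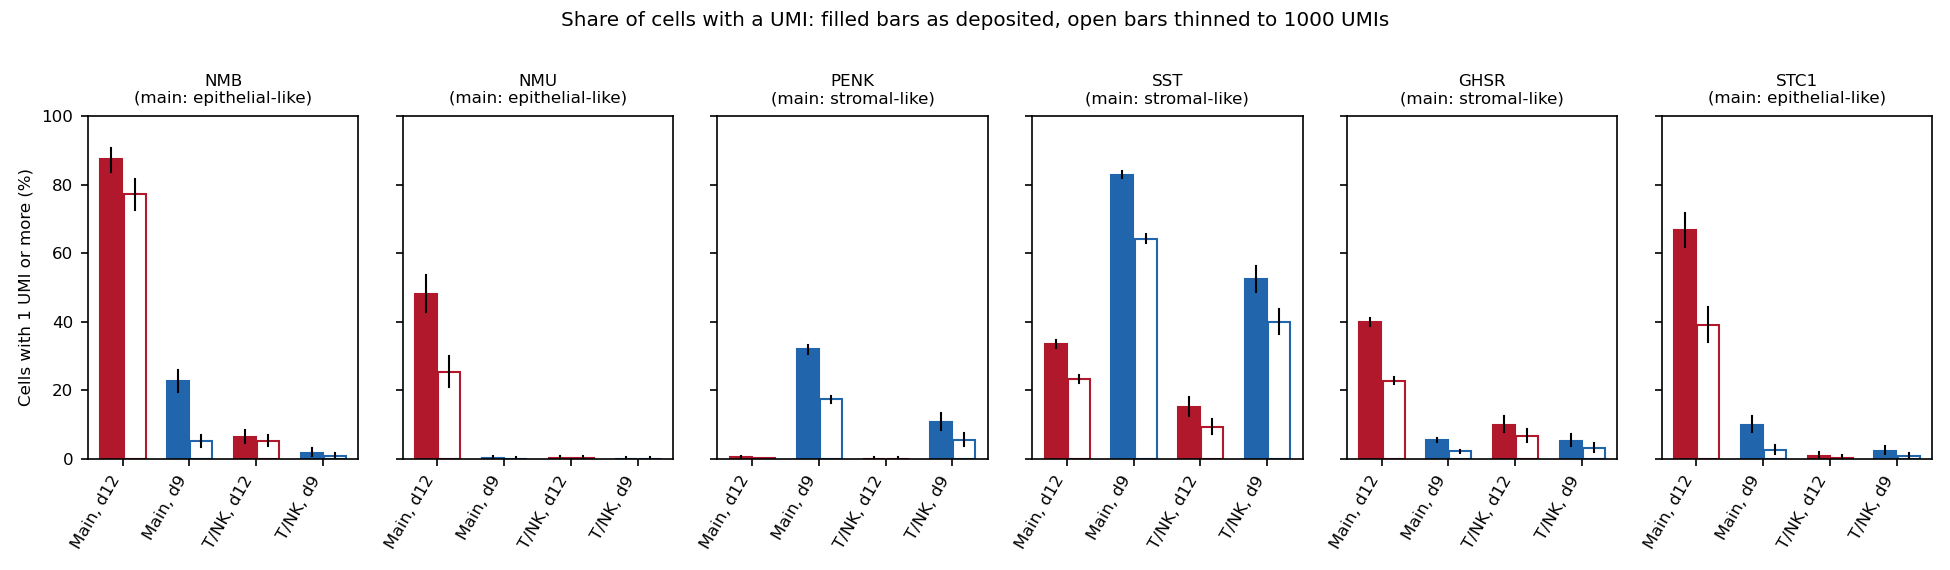
Share of cells with 1 UMI or more of each gene (percent) in its main class, epithelial-like or stromal-like, and in T or NK cell-like cells, for day 12 (d12, red) left of day 9 (d9, blue); filled bars are counts as deposited, open bars counts thinned to 1000 UMIs per cell, and lines are exact 95% binomial intervals. The SST share of T or NK cell-like cells is 52.5% on day 9, where their summed stromal markers stand at 38.8% of the stromal level. The GHSR share of stromal cells on day 9 is 5.43% beside 5.25% of T or NK cell-like cells, and 2.15% beside 3.06% after thinning.

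Receptors of these peptides, and relatives of those receptors, were seldom counted in the endometrial classes. Of 14 receptors listed 13 are in the files, 4 had no UMI in any named endometrial class of 50 cells or more on either day (NMBR, the neuromedin B receptor, the opioid receptors OPRM1 and OPRK1, and the somatostatin receptor SSTR5), 7 stayed under 5 CPM and 2 reached it. NMUR1, a receptor of neuromedin U, was highest in T or NK cell-like cells, with 9.73 CPM on day 12 (11 UMIs, 4.86 to 17.4) and 30.9 CPM on day 9 (43 UMIs, 22.4 to 41.7). OPRL1, the nociceptin receptor and a relative of the opioid receptors, had 12.4 CPM in stromal-like cells of day 12 (165 UMIs) and 66.6 CPM on day 9 (986 UMIs). It was 5.39-fold lower on day 12 (4.57 to 6.4), and the 3 stromal clusters of day 9 were alike in it, between 65.6 and 67.7 CPM. It was the 1 listed receptor at 5 CPM or more in either class, and its log2 ratio was -2.34 in stroma and -1.47 in epithelium. Its ligand nociceptin is made from PNOC, which is not among the genes described here.

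Ghrelin itself was not detectable at this depth. GHRL, the ghrelin precursor, and MBOAT4, the enzyme that acylates ghrelin, had no UMI in the endometrial classes, and neither had PNOC, the precursor of nociceptin. LEAP2, another endogenous ligand of GHSR, was counted at low levels, with 30 UMIs in stromal-like cells of day 12 (2.25 CPM) and 17 on day 9 (1.15 CPM), and none in epithelial-like cells of day 12 against 13 on day 9 (3.14 CPM). Of the 9 listed genes of this kind in the files, 2 reached 5 CPM. STC2, the paralogue of STC1, was highest in blood endothelial-like cells, with 15.2 CPM on day 12 and 23.6 CPM on day 9, and MRAP2, an accessory protein of GHSR, in blood endothelial-like cells of day 9 with 7.87 CPM. Depth limits these values: in stromal-like cells 3 UMIs correspond to 0.225 CPM on day 12 and 0.203 CPM on day 9, but in blood endothelial-like cells of day 9 to 2.36 CPM.

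Genes that make, store and degrade peptides were measured beside them, on lists chosen with earlier results of these data known. Of 12 genes of precursor processing 7 reached 5 CPM in epithelial-like cells, with a median log2 ratio of 0.80 (all genes -0.16). Of these 7, 1 was 4-fold or more higher on day 12 and 1 as much lower, against 3.62% and 4.83% of all genes. The higher one was PAM, which amidates the C terminus of peptides such as neuromedin B and neuromedin U, with 582 CPM on day 12 and 117 CPM on day 9. In stromal-like cells PAM had 1237 CPM on day 12 and 371 CPM on day 9, a 3.33-fold difference, and of 9 measured genes none passed 4-fold (median 0.09, all genes -0.10). The lower epithelial one, CTSL (a lysosomal protease), had 1 UMI on day 12 and 44 on day 9.

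Of 11 granins and vesicle genes in the files, 5 were measured in epithelial-like cells (median -0.33, all genes -0.16). Of these 5, 1 was 4-fold or more higher and 1 as much lower, against 3.62% and 4.83% of all genes. PTPRN, a membrane protein of dense core vesicles, had 69.3 CPM on day 12 (98 UMIs) and 1.45 CPM on day 9 (6 UMIs), a ratio of 47.8 (21.2 to 134). RAB3A, a small GTPase of secretory vesicles, had 1 UMI on day 12 and 35 on day 9. In stromal-like cells 4 were measured and none passed 4-fold (median -0.07).

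Peptide-degrading enzymes stood higher in the epithelium of day 12 in 9 of 11 measured, 2 of them past 4-fold (median 0.87), where 41.9% of all measured genes stood above 0, 3.62% were 4-fold or more higher and the median was -0.16. ANPEP, the aminopeptidase that trims enkephalins, had 33.9 CPM on day 12 and 5.55 CPM on day 9 in epithelial-like cells. DPP4 had 21.9 CPM on day 12 (31 UMIs) and 0.724 CPM on day 9 (3 UMIs), a ratio of 30.3 (9.44 to 155). In stromal-like cells 4 of 9 were above 0 and none passed 4-fold (median -0.22), although ANPEP had 86.3 CPM on day 12, against 21.5 CPM on day 9.

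Of the stanniocalcin and PAPPA axis, 1 gene passed 4-fold upwards in each class, where 3.62% of all genes did in epithelium and 1.28% in stroma. That gene was IGFBP2, a binding protein of insulin-like growth factors. It was higher on day 12 in epithelial-like cells (268 CPM, against 10.4 CPM on day 9) and in stromal-like cells (600.1 CPM, against 39.5 CPM on day 9). All 5 genes measured in epithelium and all 6 in stroma were above a log2 ratio of 0, with medians of 0.98 and 1.11, where 41.9% and 42.5% of all measured genes were above 0 and their medians were -0.16 and -0.10. STC1 itself ran in opposite directions in these classes.

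Among other peptide hormones on the list, 15 of the 42 in the files were measured in epithelial-like cells (median -0.21, all genes -0.16). Of these 15, 5 were 4-fold or more higher on day 12 and 4 as much lower, against 3.62% and 4.83% of all genes. The higher include NMB and NMU, and the lower are PENK, CCK (cholecystokinin), EDN2 (endothelin 2) and APLN (apelin). NMB, NMU and PENK were chosen for their day ratios, so nothing is read from these counts. NPY, the precursor of neuropeptide Y, had 169 UMIs on day 12, all in cluster 12, and none on day 9, at least 165-fold higher with 3 counts in place of 0. They came from 18 of its 296 cells, and 81 from a single cell. PTHLH, which encodes the parathyroid hormone-related protein, had 84.1 CPM on day 12 and 1.21 CPM on day 9 in epithelium, with all of its 119 UMIs of day 12 in cluster 12, and 76.4 and 9.26 CPM in stroma. OXT, the oxytocin precursor, which was chosen after its values were seen, had 117 UMIs on day 12, all in 26 cells of cluster 12, and 2 on day 9. AGT, angiotensinogen, was higher in stroma, with 638 CPM on day 12 and 151 CPM on day 9. In stroma 3 of 8 measured passed 4-fold upwards (NMB, PTHLH and AGT) and 1 downwards (PENK), against 1.28% and 1.74% of all genes. The median was 0.35 (all genes -0.10).

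Of the calcium and phosphate genes, 1 of 8 measured passed 4-fold upwards in epithelium (median -0.49) and 1 of 7 in stroma (median -0.39). Over all genes 3.62% and 1.28% did, with medians of -0.16 and -0.10. In both classes the listed gene was TRPV5, at 2263 CPM in epithelial-like cells of day 12 and 34.5 CPM on day 9, and at 20.8 and 2.23 CPM in stromal-like cells. The stromal clusters of day 12 had between 12.1 and 22.5 CPM of it. Epithelial markers stood at 1.21% of their epithelial level in stromal-like cells of that day. The part of RNA from epithelial cells in the stromal value was not tested. Of the oestrogen and progesterone receptor genes, 11 were measured in each class and none passed 4-fold. Over all genes 3.62% were as much higher and 4.83% as much lower in epithelium, and 1.28% and 1.74% in stroma. The medians were -0.68 in epithelium and 0.41 in stroma (all genes -0.16 and -0.10). In epithelium 1 of the 11 was above a log2 ratio of 0, and in stroma 6 were, against 41.9% and 42.5% of all genes. ESR1, the oestrogen receptor, had 72.1 CPM on day 12 and 194 CPM on day 9 in epithelium.

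The genes whose levels most resembled each of the 6 were sought by Pearson correlation of log2(CPM + 1) over 15 points, 7 classes of day 12 and 8 of day 9, which share library, depth and free RNA. For NMB they were PRSS16 (0.97), TRPV5 (0.96) and FXYD3 (0.94), and for NMU ENSSSCG00000006592 (0.95), PRSS16 (0.95) and S100A8 (0.94). PENK was most like ST6GAL2 (0.98), GALNT17 (0.97) and PRELP (0.97), and SST like SMOC2 (0.98), FNDC1 (0.96) and WNT6 (0.96). GHSR and STC1 had looser company, with NLRC5 (0.89), SLC39A8 (0.88) and ENSSSCG00000031634 (0.86) for GHSR, and LNX2 (0.91), FAM124B (0.90) and UXS1 (0.89) for STC1.

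In the embryo NMB was the most counted of the 6 genes. The day 12 embryo held 1441 NMB UMIs in 6671 cells (22.4 CPM), and the day 9 embryo 130 in 7000 cells (1.58 CPM), against 202 and 13.6 CPM over all kept endometrial cells of day 12 and day 9. PENK had no UMI in either embryo, where 3 UMIs would be 0.0467 CPM on day 12 and 0.0364 CPM on day 9. SST had 2 UMIs on each day, GHSR 5 on each day, NMU 16 on day 12 and 2 on day 9, and STC1 27 on day 12 and none on day 9.

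A cluster of 20 cells in the day 12 embryo, cluster 10, carried much of this. It held 382 of the 1441 NMB UMIs (5514 CPM), 9 of the 16 NMU UMIs (129.9 CPM) and 18 of the 27 STC1 UMIs (259.8 CPM), and no UMI of PENK, SST or GHSR. All 20 cells had NMB. Their 10 leading genes are headed by S100A2 and ISG12(A) and include NMB near the end. The cluster was unnamed, with TRPV5 at 621 CPM, FXYD3 at 1472 CPM and S100A12 at 1212 CPM, 3 genes that also mark cluster 12 of the day 12 endometrium. In the other 9 clusters of that embryo library TRPV5 was at most 21.3 CPM and S100A12 at most 0.611 CPM. Its summed trophectoderm markers were 2612 CPM, against 5512 CPM or more in the others. Its summed epithelial markers, 10695 CPM, lay within the range of the others (6817 to 12713 CPM), and so did PRSS16, the gene most like NMB, with 101 CPM against up to 107.8 CPM. Without these 20 cells the day 12 embryo had 1059 NMB UMIs (16.5 CPM), 7 of NMU and 9 of STC1.

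NMB was higher on day 12 in 2 of the 3 embryo classes named on both days. Hypoblast-like cells had 24.5 CPM on day 12 (710 UMIs) and 1.51 CPM on day 9 (113 UMIs), a 16.2-fold higher level (13.3 to 19.98). Trophectoderm-like cells had 8.47 CPM on day 12 (240 UMIs) and 0.678 CPM on day 9 (3 UMIs), a ratio of 12.5 (4.22 to 61.0). Epiblast-like cells had 27.5 CPM on day 12 (52 UMIs, 20.5 to 36.0) and 34.4 CPM on day 9 (11 UMIs, 17.2 to 61.5), the day 9 value from 21 cells, and these intervals overlap. Cells of the day 9 embryo had to be called here from 657829 deposited barcodes, so the 2 embryo libraries did not reach this comparison in the same way.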

How the data were processed

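Single-cell 3' libraries of pig endometrium and embryos at days 12 and 9 of pregnancy were analysed, 1 library per group. The authors deposited raw UMI counts for every gene in each barcode. The submitters' processing notes name Cell Ranger 6.1.2 and the Sscrofa11.1 build, while Cell Ranger 4 stands in the day 9 embryo file header. That library holds 657829 barcodes, and cells were called above 10% of the UMIs at percentile 99 of its top 3000 barcodes. The other 3 libraries were used with the barcodes as deposited. Cells with 1000 UMIs, 500 genes and at most 20% mitochondrial UMIs were kept, and doublets marked by Scrublet were removed. Scrublet marked 0 cells in both endometrial libraries, 93 of 6764 in the day 12 embryo and 1 of 7001 in the day 9 embryo. Doublets may remain, above all in the 3 libraries with 0 or 1 marked. Kept depth was 25457541 and 26070993 UMIs in endometrium of day 12 and day 9, and 64299480 and 82526421 UMIs in embryos of day 12 and day 9.

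Each library was clustered alone (scanpy 1.11.5, Python 3.11.15; 2000 variable genes, 30 components, 15 neighbours, Leiden resolution 0.6). A cluster was named for the class with the most markers among its 50 leading genes, or else the most markers at or above 0.5 of their highest cluster level, of which 3 were needed. It stayed unnamed where markers of another class were also high or outnumbered its own among the 10 leading genes, or where it was shallow with no own marker among those 10. Of 198 markers of 20 classes 175 are in the files. Names rebuilt in this way may differ from those of the study. Counts were summed per class and divided by the class total (CPM). A gene was measured at 5 CPM on either day and called at 4-fold on log2(CPM + 1). Intervals are exact Poisson (levels), exact binomial (shares, ratios of counts) and cover counting error only. Shares were recomputed with each cell thinned to 1000 UMIs, and a count of 0 was set to 3 counts for bounds. The ratio script was tested on simulated data.

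The 6 genes and all lists were chosen with earlier results of these data known. Genes named besides them were those of 10 lists (139 of 162 genes in the files) past 4-fold at 20 CPM, at most 6 per list by level, the 3 most alike by correlation, and the leading genes of clusters. Of the others, NMUR1, STC2, MRAP2, LEAP2, CTSL, RAB3A, OXT, CCK, EDN2, APLN, ESR1, RBP4, ACP5, the receptors and ligands without counts, and the genes given for the embryo cluster were chosen after their values were seen. Symbols came from the files for 14811 genes and from a reference table for 694, NMB among them. Fixed alternatives were other filters, scaling, pseudocount, joint clustering, another resolution, no classes and shared barcodes left out.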

Additional observations from a re-analysis of the deposited data

Results flagged for a closer look

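STC1 differed between days in opposite directions in the epithelial-like and stromal-like cells of the same libraries, and the 2 effects differ by 6.96 on the log2 scale. It was at 709.8 CPM in epithelial-like cells of day 12 and 20.8 CPM on day 9, and at 6.44 CPM in stromal-like cells of day 12 and 27.4 CPM on day 9. The difference was not tested, since each day is 1 library. It does not hold where the large epithelial cluster of day 12 goes without its name.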

How the results depend on the processing

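Values are log2 ratios of day 12 over day 9. NMB in epithelium was 4.85 with at most 10% mitochondrial UMIs, 4.86 with both libraries clustered together and 3.8 over all kept cells without classes. NMU in epithelium was 3.68, 3.33 and 4.62 in these settings, and 6.46 with a pseudocount of 5 CPM. STC1 in epithelium reversed to -1.83 and -1.80 in the first pair, where the epithelial class of day 12 was the small cluster alone, and was 1.41 without classes. STC1 in stroma reversed to 1.41 without classes, which adds the epithelial cells. With unnamed clusters included in the nearest class, chosen after seeing the data, NMB was 5.73 (10% mitochondrial) and 5.72 (joint), NMU 8.81 and 8.49, and STC1 4.87 and 4.89. PENK in stroma was -5.08 with the larger pseudocount. SST in stroma was -1.69 with median of ratios scaling, -2.03 with 2000 UMIs per cell (-2.06 with unnamed clusters, added later) and -1.83 without classes. GHSR in stroma was 3.65 with the larger pseudocount and 3.13 without classes. The share of all genes past 4-fold upwards in epithelium was 6.09% at 50 CPM or more. In stroma it was 2.01% upwards and 1.02% downwards at 50 CPM, and 0.813% and 1.13% with no minimum. With no minimum the list medians of granins changed sign in epithelium (0.20) and stroma (0.06), as did that of other peptide hormones in stroma (-0.09), and that of precursor processing in stroma was 0. Of the main planned results under an alternative, 35 stayed within their counting interval (for shares of genes, within a fixed factor), 19 moved further and 2 reversed. Keeping doublets was not run, since none was marked in endometrium. No paired analysis was possible because each group has 1 library. Depth limits NMU on day 9, STC1 in the small epithelial cluster and the receptors, each with few or no UMIs.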
